A study of Homo sapiens with 10 samples.

Results

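Ribosome footprints of 10 genes of the translation machinery were followed across 10 Ribo-seq libraries of human pancreatic cancer cells: the elongation factors EEF1A1 and EEF2, the cap-binding and helicase factors EIF4E, EIF4G1, EIF4A1 and EIF4A2, the eIF4E-binding repressor EIF4EBP1, the alpha subunit of eIF2 (EIF2S1), and the eIF2alpha kinases EIF2AK3 (PERK) and EIF2AK4 (GCN2). They were taken as a fixed list of Ensembl gene IDs, 10 of the 20289 genes in the table: EEF1A1 is ENSG00000156508, EEF2 ENSG00000167658, EIF4EBP1 ENSG00000187840, EIF4E ENSG00000151247, EIF4G1 ENSG00000114867, EIF4A1 ENSG00000161960, EIF4A2 ENSG00000156976, EIF2S1 ENSG00000134001, EIF2AK3 ENSG00000172071 and EIF2AK4 ENSG00000128829. All 10 were present and all 10 passed the filter on low values. The libraries came from PANC-1 exposed to 1 µM IKE (4 libraries), PANC-1 with 0.1% DMSO (2 libraries), CFPAC-1 exposed to 10 µM IKE (2 libraries) and CFPAC-1 with 0.1% DMSO (2 libraries). PANC-1 and CFPAC-1 are established lines of pancreatic ductal adenocarcinoma, and IKE (imidazole ketone erastin) is an inhibitor of cystine import used to trigger ferroptosis. Exposure was 24 h per the treatment labels, whereas the extraction protocol describes 5 consecutive days, and in all groups dead cells had been washed away so that only survivors were sampled. Line and IKE dose change together, because no dose was used in both lines.

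A ribosome footprint is the stretch of mRNA that a ribosome shields from nuclease, so a gene's footprint level joins its mRNA abundance with its translation, and these libraries alone do not separate them. Most mRNAs are translated after eIF4E binds the 5′ cap and recruits the scaffold eIF4G and the RNA helicase eIF4A, while hypophosphorylated 4E-BP1 blocks that step by occupying eIF4E. The eIF2 complex brings the initiator tRNA, and phosphorylation of its alpha subunit by PERK during endoplasmic reticulum stress or by GCN2 during amino acid shortage lowers initiation and starts the integrated stress response. Loss of cystine is a known trigger of that response. The elongation factors eEF1A and eEF2 deliver aminoacyl-tRNAs and move the ribosome along the message, and their mRNAs belong to the class whose first bases are an oligopyrimidine tract (TOP mRNAs), which couples their translation to mTOR signalling. A library value pools all cells in it, so fewer expressing cells and fewer footprints per cell cannot be told apart.

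The start sites of the 4 genes with the highest mean levels are shown because they differ in the oligopyrimidine tract that marks the TOP class. A TATAA before the start was searched for as well. The start site of EIF2S1, which lies lower in PANC-1, is shown as one with neither the tract nor TATAA. RefSeq windows (GRCh38.p14) were available for 9 of the 10 genes, as 11 windows. Each sequence below runs 5′ to 3′ on the strand of the gene, from 40 bases before the annotated start to the 15th base of the transcript. Capitals mark a TATAA found within the 40 to 16 bases before the start and a tract that begins with C at the first transcribed base and goes on with at least 4 pyrimidines.
EEF1A1 (chr6:73521018-73521072, minus strand): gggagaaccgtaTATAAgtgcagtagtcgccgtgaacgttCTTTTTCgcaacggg
EEF2 (chr19:3985449-3985503, minus strand): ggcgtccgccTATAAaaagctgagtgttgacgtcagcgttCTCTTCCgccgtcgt
EIF4A2 (chr3:186783537-186783591, plus strand): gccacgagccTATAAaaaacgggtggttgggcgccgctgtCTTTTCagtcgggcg
EIF4A1 (chr17:7572785-7572839, plus strand): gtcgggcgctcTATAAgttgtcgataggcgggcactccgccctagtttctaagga
EIF2S1 (chr14:67360288-67360342, plus strand): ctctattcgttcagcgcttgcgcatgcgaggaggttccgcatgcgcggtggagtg

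The pyrimidine tract was found in 3 of the 11 windows, those of EEF1A1 (7 bases), EEF2 (7 bases) and EIF4A2 (6 bases), against 4.07% of all 35116 windows in the table. TATAA was found in these 3 and in EIF4A1, against 3.91% of all windows, and both features together in 0.094% of all windows. Both searches covered only the strand of the gene, as printed above. The windows of EIF4E, EIF4G1 (3 start sites), EIF2S1, EIF2AK3 and EIF2AK4 held neither. A match describes these letters at the annotated start and does not show that the start was used in these cells.

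The level of the 10 genes spanned more than 2 orders of magnitude. On the FPKM scale, which divides by gene length, EEF1A1 averaged 2738 and EIF4A1 1826 over the 10 libraries, followed by EEF2 (280), EIF4A2 (189), EIF4E (117), EIF2S1 (90.9), EIF4G1 (89.0), EIF4EBP1 (55.2), EIF2AK3 (24.7) and EIF2AK4 (12.2). The sources used here do not say which length was used, so levels and ratios between different genes are approximate. The 10 genes held 0.313% to 0.8% of summed FPKM in PANC-1 libraries and 0.264% to 0.33% in CFPAC-1 libraries. Values of some members are uncertain for how reads were assigned. RefSeq lists 50 pseudogenes named after EEF1A1, 13 after EIF4A1, 5 each after EIF4A2 and EIF4E, 2 after EIF4EBP1, and snoRNA genes lie inside EIF4A2 (5), EIF4A1 (3), EEF2 (1), EIF4G1 (1) and EIF2AK4 (1). The sources used here do not say how reads from such copies were treated.

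**Figure D1:**
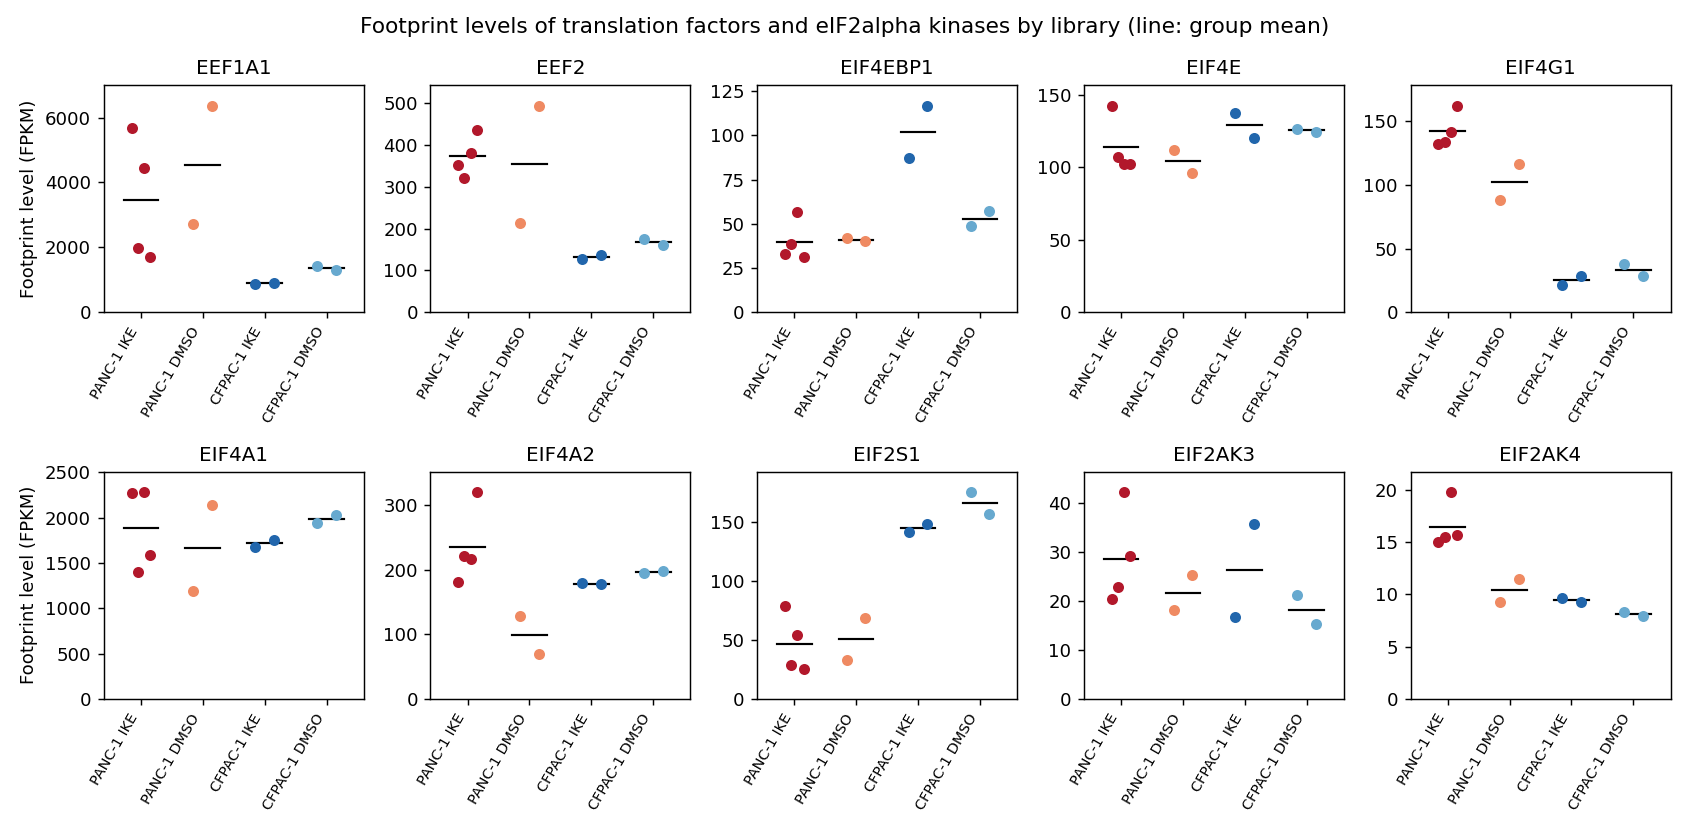
FPKM of each gene (vertical axis, from 0) in every library, with PANC-1 IKE, PANC-1 DMSO, CFPAC-1 IKE and CFPAC-1 DMSO from left to right; points are libraries and the black line is the group mean. EIF4G1, EEF1A1 and EEF2 lie higher and EIF2S1 lower in all 6 PANC-1 libraries than in all 4 CFPAC-1 libraries.

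The libraries differed in depth and spread. With CFPAC-1 DMSO replicate 1 set to 1, relative depth estimated from the steps between low FPKM values was 0.21 to 0.877 in PANC-1 IKE libraries, 0.327 and 0.508 in PANC-1 DMSO libraries, and 0.916 to 1.17 in the other CFPAC-1 libraries; absolute depth is unknown. The median residual SD of log2 values over the 13125 genes tested was 0.481 in PANC-1 and 0.18 in CFPAC-1. For EEF1A1 it was 0.861 and 0.0665. PANC-1 IKE replicates 2, 3 and 4 stood apart by the share of their 10 highest genes, at 16.2%, 12.2% and 23.1%, whereas it was 8.51% to 9.64% in the other libraries. Without the shallowest of them, replicates 2 and 4, the members called between lines numbered 6 among IKE and 4 among DMSO libraries, and 0 for the IKE effects. Of all 13125 tested genes, 6055 were called between lines among IKE and 5817 among DMSO libraries in that fit. For the IKE effects 1 was called in PANC-1 and 2 in CFPAC-1. The labels call replicates biological without naming separate cultures, so p-values measure the spread between these libraries.

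The clearest difference concerned the 2 lines. EIF4G1, the scaffold that joins the cap-binding protein to the helicase, stood several-fold higher in PANC-1, and EIF2S1, the target of the stress kinases, stood lower, with and without IKE. Both elongation factors were higher in PANC-1 among IKE libraries. EIF4E and EIF4A1 were not called in either condition. Over all libraries the lines did not overlap for 4 of the 10 genes, 3 higher and 1 lower in PANC-1, where 44.4% of all tested genes did not overlap (19.4% higher and 25% lower), so the members' share is near the background. Among DMSO libraries alone 8 of 10 did not overlap, 4 higher and 4 lower, where 70.6% of all tested genes did not (33.8% higher and 36.8% lower). Among IKE libraries alone 7 of 10 did not, 5 higher and 2 lower, where 61.4% of all tested genes did not (28.7% higher and 32.6% lower).

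In PANC-1 IKE replicates 1 to 4, EIF4G1 had 132, 133, 142 and 162 FPKM, against 21.65 and 28.4 FPKM in the CFPAC-1 IKE libraries. With DMSO it had 88.3 and 116 FPKM in PANC-1, against 37.8 and 28.4 FPKM in CFPAC-1. The lowest PANC-1 library thus lay above the highest CFPAC-1 library in either condition. On the scale of log2(FPKM + 1), on which all log2 differences here are given and which understates changes of low values, PANC-1 exceeded CFPAC-1 by 2.47 ± 0.24 with IKE (SE; limma adjusted p = 1.97e-05) and by 1.60 ± 0.28 with DMSO (limma adjusted p = 0.00145). A gene was called at a Benjamini-Hochberg adjusted p under 0.05 over all 13125 genes. EIF4G1 stayed called in both conditions under all 19 alternatives.

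EIF4E, the cap-binding protein itself, varied least. It had 96.5 to 143 FPKM in the 6 PANC-1 libraries and 121 to 138 FPKM in the 4 CFPAC-1 libraries, which overlap. PANC-1 minus CFPAC-1 was -0.19 with IKE (95% interval -0.68 to 0.30) and -0.27 with DMSO (-0.84 to 0.29), neither called (limma adjusted p = 0.501 and 0.452). The ratio of footprint levels, EIF4G1 over EIF4E, was 1.28 ± 0.28 in PANC-1 IKE (SD, n = 4) and 0.196 ± 0.056 in CFPAC-1 IKE (n = 2). With DMSO it was 0.995 ± 0.294 in PANC-1 (n = 2) and 0.263 ± 0.050 in CFPAC-1 (n = 2). Amounts of the proteins were not measured here. EIF4G1 exceeded EIF4E in 4 of 6 PANC-1 libraries and in 0 of 4 CFPAC-1 libraries. These ratios are descriptions without a test.

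In PANC-1 IKE replicates 1 to 4, EIF2S1 had 78.4, 29.1, 54.0 and 25.3 FPKM, against 141 and 148 FPKM in CFPAC-1 IKE. With DMSO it had 32.99 and 68.6 FPKM in PANC-1, against 175 and 156 FPKM in CFPAC-1. Every PANC-1 library was below every CFPAC-1 library, but the PANC-1 libraries spread 3.1-fold. The difference was -1.75 ± 0.45 with IKE (SE; limma adjusted p = 0.00893) and -1.77 ± 0.51 with DMSO (limma adjusted p = 0.0232). The call with DMSO was lost without PANC-1 DMSO replicate 1 (limma adjusted p = 0.16) or without CFPAC-1 DMSO replicate 1 (0.122) or 2 (0.0932), and that with IKE without CFPAC-1 IKE replicate 1 (0.0621) or 2 (0.0688). Without PANC-1 IKE replicates 2 and 4 the IKE difference was -1.14 (limma adjusted p = 0.0287). Where 1 library was left in a group, its spread was taken from the rest of the fit.

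EEF1A1, the tRNA-delivering elongation factor, had 5677, 1975, 4442 and 1689 FPKM in the PANC-1 IKE libraries (replicates 1 to 4), against 875 and 912 FPKM in CFPAC-1 IKE. With DMSO it had 2722 and 6367 FPKM in PANC-1, against 1415 and 1303 FPKM in CFPAC-1. It ranked 12th to 90th of 20289 genes in PANC-1 libraries and 115th to 218th in CFPAC-1 libraries. PANC-1 was higher by 1.76 ± 0.51 with IKE (SE; limma adjusted p = 0.0168), a call lost without CFPAC-1 IKE replicate 1 (0.107) or 2 (0.0958). Without PANC-1 IKE replicates 2 and 4 it was 2.49 (limma adjusted p = 0.00113). With DMSO the difference of 1.62 ± 0.59 was not called (limma adjusted p = 0.0574) and became a call in 5 of 19 alternatives, namely with library weights (limma adjusted p = 0.0146) and without PANC-1 DMSO replicate 1 (0.0402), PANC-1 IKE replicate 1 (0.0383), PANC-1 IKE replicate 4 (0.0318) or PANC-1 IKE replicates 2 and 4 together (0.00889). The DMSO difference was 2.23 without PANC-1 DMSO replicate 1 and 1.00 without replicate 2 (limma adjusted p = 0.293).

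EEF2, the translocation factor, had 352, 320, 381 and 436 FPKM in PANC-1 IKE, against 128 and 137 FPKM in CFPAC-1 IKE. It had 213 and 494 FPKM in PANC-1 DMSO, against 175 and 160.5 FPKM in CFPAC-1 DMSO. The groups did not overlap in either condition. The difference was 1.47 ± 0.31 with IKE (SE; limma adjusted p = 0.00313), called in all 19 alternatives, and 0.95 ± 0.36 with DMSO, not called (limma adjusted p = 0.0633) except with library weights (0.0235) or without PANC-1 DMSO replicate 1, where it was 1.56 (0.00392). Without PANC-1 DMSO replicate 2 it was 0.35 (limma adjusted p = 0.378).

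The helicase paralogs EIF4A1 and EIF4A2 and the kinases differed less clearly between lines. EIF4A1 lay at 1401 to 2278 FPKM in PANC-1 IKE and 1672 and 1757 FPKM in CFPAC-1 IKE, with 1195 and 2138 FPKM in PANC-1 DMSO and 1934 and 2033 FPKM in CFPAC-1 DMSO, and was not called in either condition (limma adjusted p = 0.809 and 0.543). EEF1A1 exceeded EIF4A1 in 6 of 6 PANC-1 libraries, whereas EIF4A1 exceeded EEF1A1 in 4 of 4 CFPAC-1 libraries. EIF4A2 was lower in PANC-1 with DMSO, by -1.05 ± 0.34 (SE; limma adjusted p = 0.0372), and not called with IKE (0.36 ± 0.30; limma adjusted p = 0.344). The DMSO call held in 11 of 19 alternatives, with limma adjusted p up to 0.212, and was lost without PANC-1 DMSO replicate 2 (0.212), CFPAC-1 DMSO replicate 1 (0.14) or 2 (0.144), either CFPAC-1 IKE library (0.0611) or PANC-1 IKE replicate 3 (0.0543), and with quantile normalization (0.074) or only the DMSO libraries fitted (0.0858).

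EIF2AK4, the kinase that senses uncharged tRNA, had 14.99, 15.5, 19.7 and 15.6 FPKM in PANC-1 IKE, against 9.64 and 9.22 FPKM in CFPAC-1 IKE. The difference of 0.74 ± 0.25 was called (SE; limma adjusted p = 0.0363), in 13 of 19 alternatives; it was lost without either CFPAC-1 DMSO library (0.0595 and 0.0594), without CFPAC-1 IKE replicate 1 (0.145) or 2 (0.171) and without PANC-1 IKE replicate 3 (0.0805), and with only the IKE libraries fitted (0.0587). With DMSO the values were 9.26 and 11.5 FPKM in PANC-1, against 8.35 and 7.91 FPKM in CFPAC-1 (0.31 ± 0.29; limma adjusted p = 0.455). EIF2AK3, the kinase of the endoplasmic reticulum, was not called in either condition, at 20.4 to 42.2 FPKM in PANC-1 IKE, 16.8 and 35.8 FPKM in CFPAC-1 IKE, 18.1 and 25.3 FPKM in PANC-1 DMSO, and 21.2 and 15.4 FPKM in CFPAC-1 DMSO. EIF2AK3 was above EIF2AK4 in all 10 libraries, by 1.71 ± 0.36 times in PANC-1 IKE (SD, n = 4), 2.08 ± 0.18 in PANC-1 DMSO (n = 2), 2.81 ± 1.52 in CFPAC-1 IKE (n = 2) and 2.24 ± 0.42 in CFPAC-1 DMSO (n = 2).

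EIF4EBP1, the gene of the repressor that occupies eIF4E, had 32.7, 38.7, 56.5 and 31.4 FPKM in PANC-1 IKE, against 87.3 and 117 FPKM in CFPAC-1 IKE. It was lower in PANC-1 there by -1.36 ± 0.28 (SE; limma adjusted p = 0.00275), in all 19 alternatives. With DMSO it had 41.75 and 40.4 FPKM in PANC-1, against 48.6 and 57.4 FPKM in CFPAC-1; the difference, -0.35 ± 0.32, was not called (limma adjusted p = 0.434). In all, 6 of the 10 genes were called between lines with IKE, 4 higher and 2 lower in PANC-1, where 46% of all tested genes were called (21.4% higher and 24.6% lower). With DMSO 3 were called, 1 higher and 2 lower, where 33.6% of all tested genes were called (15.1% higher and 18.5% lower). The median difference of the 10 genes was 0.26 with IKE and -0.02 with DMSO, beside -0.04 and -0.03 over all genes.

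**Figure D2:**
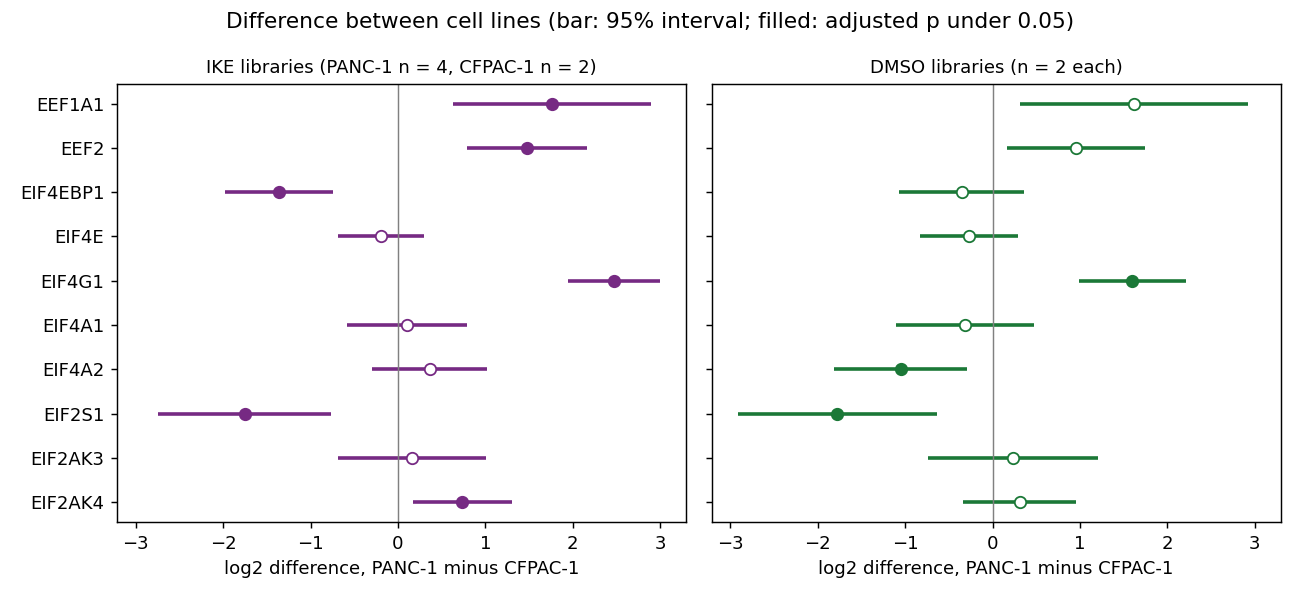
PANC-1 minus CFPAC-1 on the log2(FPKM + 1) scale (horizontal axis) for each gene, in IKE libraries on the left and DMSO libraries on the right; bars are 95% intervals of the limma fit and filled points are called genes. EIF4G1 (2.47 and 1.60) and EIF2S1 (-1.75 and -1.77) are filled in both panels.

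IKE itself changed no member enough to be called in either line. In PANC-1 0 of 10 were called (0.0152% of all tested genes were), with limma adjusted p from 0.126 to 0.909. An unadjusted limma p under 0.05 was found for 2 of the 10, and for 2304 of all 13125 tested genes. In CFPAC-1 0 of 10 were called (0.00762% of all tested genes were), with a limma adjusted p of 1 for each. There 1 of the 10 had an unadjusted limma p under 0.05, as did 194 of all 13125 tested genes. No member was called in either line under any alternative either. In the fit of all 10 libraries, members' log2 standard errors were 0.22 to 0.51 in PANC-1 and 0.25 to 0.59 in CFPAC-1. Changes of moderate size were thus not detectable in that fit, which pools the spread of both lines. Fitted on CFPAC-1 alone, the errors ran from 0.062 (EIF4A2) to 0.44 (EIF2AK3), with no member called. There the unadjusted limma p was under 0.05 for EEF1A1 (0.0031), EIF4EBP1 (0.011) and EEF2 (0.021). The same held for 1591 of all 13125 tested genes.

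In PANC-1 the largest movement was in EIF4A2, the less abundant eIF4A helicase. It had 181, 222, 217 and 320 FPKM in IKE replicates 1 to 4, against 128 and 69.3 FPKM in the DMSO libraries, so all 4 IKE libraries lay above both DMSO libraries. The log2 difference was 1.28 ± 0.30 (SE; limma adjusted p = 0.126, and 0.0744 to 0.445 over the alternatives) and was positive in all 21 alternatives. Alternatives that left out only CFPAC-1 libraries, changed only the filter or fitted PANC-1 alone could not change this difference. Without IKE replicates 2 and 4 it was 1.06 ± 0.29 (limma adjusted p = 0.165). EIF4A1 moved by 0.20 ± 0.31 (limma adjusted p = 0.766). EIF4A2 over EIF4A1 was 0.134 ± 0.057 in PANC-1 IKE (SD, n = 4) and 0.0697 ± 0.0527 in PANC-1 DMSO (n = 2), and the DMSO libraries themselves differed, at 0.107 and 0.0324.

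EIF2AK4 had 14.99 to 19.7 FPKM in PANC-1 IKE, against 9.26 and 11.5 FPKM in DMSO, a difference of 0.62 ± 0.25 (SE; limma adjusted p = 0.248). EIF4G1 had 132 to 162 FPKM in IKE, against 88.3 and 116 FPKM in DMSO, a difference of 0.48 ± 0.24 (limma adjusted p = 0.324). These 2 genes and EIF4A2 were the members whose groups did not overlap in PANC-1, 3 of 10 and all higher with IKE, where 22.4% of all tested genes did not overlap (10.2% higher and 12.2% lower). The other 7 overlapped. EIF2AK3 stood at 0.35 ± 0.38, EEF2 at 0.19 ± 0.31, EIF4E at 0.11 ± 0.22, EIF4EBP1 at -0.08 ± 0.28, EIF2S1 at -0.17 ± 0.45 and EEF1A1 at -0.46 ± 0.51 on the log2 scale.

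In CFPAC-1 the largest movement was in EIF4EBP1, with 87.3 and 117 FPKM in the IKE libraries, against 48.6 and 57.4 FPKM in the DMSO libraries. The log2 difference was 0.92 ± 0.32 (SE; limma adjusted p = 1). Fitted on CFPAC-1 alone, the standard error was 0.19 and the limma adjusted p 0.356, and over all alternatives the adjusted p ran from 0.105 to 1. Since EIF4E stayed at 138 and 121 FPKM with IKE and 127 and 125 FPKM with DMSO, EIF4EBP1 over EIF4E was 0.801 ± 0.238 with IKE and 0.422 ± 0.055 with DMSO (SD, n = 2 each).

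In the same line EEF1A1 had 875 and 912 FPKM with IKE, against 1415 and 1303 FPKM with DMSO, which is -0.60 ± 0.59 in log2 (SE; limma adjusted p = 1). Its replicates lay close together in this line, and with the spread of CFPAC-1 alone the standard error was 0.09 and the limma adjusted p 0.333. EEF2 had 128 and 137 FPKM with IKE, against 175 and 160.5 FPKM with DMSO, a difference of -0.33 ± 0.36 (limma adjusted p = 1; 0.364 with CFPAC-1 alone). EEF2 over EEF1A1 was 0.148 ± 0.00292 with IKE and 0.123 ± 0.000112 with DMSO (SD, n = 2 each). EIF4A1, EIF2S1 and EIF4A2 stood at -0.21 ± 0.36, -0.19 ± 0.51 and -0.13 ± 0.34.

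In CFPAC-1 the groups did not overlap for 7 of the 10 genes, 5 lower and 2 higher with IKE, where 42.6% of all tested genes did not overlap (22.3% lower and 20.2% higher). The 2 higher ones were EIF4EBP1 and EIF2AK4, with EIF2AK4 at 9.64 and 9.22 FPKM with IKE, against 8.35 and 7.91 FPKM with DMSO (0.19 ± 0.29). EIF4G1 (-0.39 ± 0.28), EIF4E (0.04 ± 0.25) and EIF2AK3 (0.43 ± 0.44) overlapped. For EIF2AK3 the IKE libraries were 2.13-fold apart, at 16.8 and 35.8 FPKM, so its value rests on CFPAC-1 IKE replicate 2 and is -0.10 without it. The median log2 difference of the 10 genes was 0.19 in PANC-1 and -0.16 in CFPAC-1, beside -0.02 and -0.01 over all genes.

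**Figure D3:**
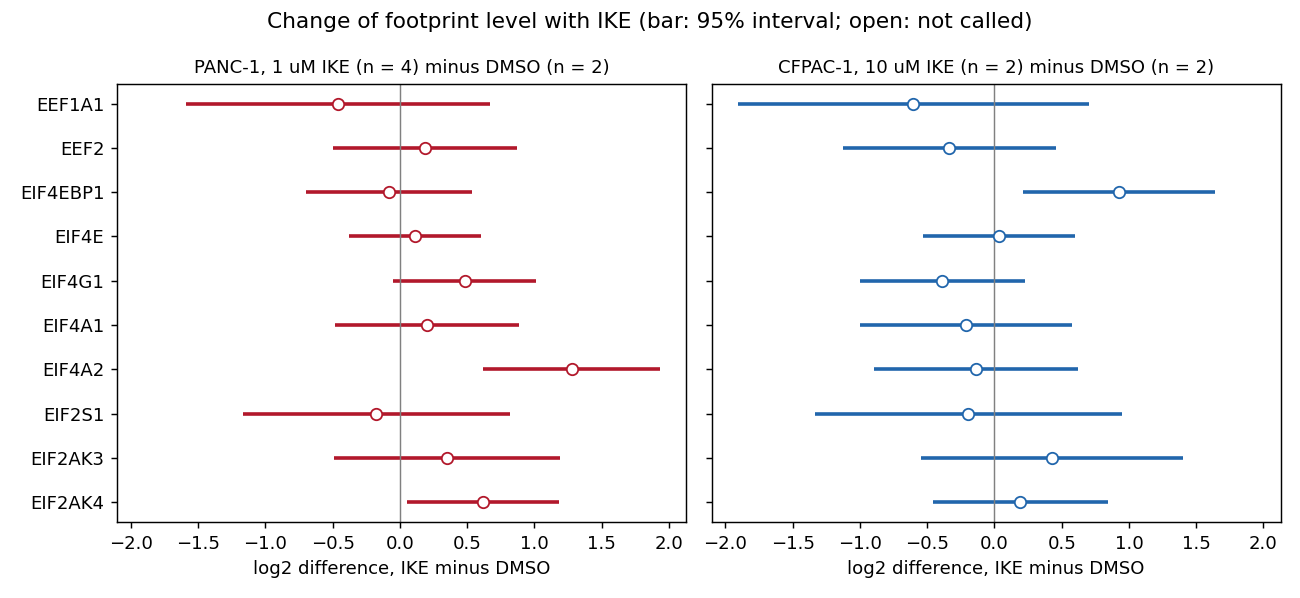
IKE minus DMSO on the log2(FPKM + 1) scale (horizontal axis) for each gene in PANC-1 (left) and CFPAC-1 (right); bars are 95% intervals of the limma fit, and all points are open because no gene was called. The intervals of EIF4A2 and EIF2AK4 in PANC-1 and of EIF4EBP1 in CFPAC-1 leave out 0 before adjustment. With PANC-1 fitted alone (not drawn), that of EIF2AK4 includes 0 (-0.053 to 1.29) and that of EIF4A2 does not (0.45 to 2.10).

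The test of the difference between the IKE effects of the lines called 0 of the 10 genes (0.0305% of all tested genes were called, 0.00762% higher and 0.0229% lower). Its unadjusted limma p was under 0.05 for 3 of the 10, and for 1104 of all 13125 tested genes. The effect in PANC-1 minus that in CFPAC-1 was 1.41 ± 0.45 for EIF4A2 (SE; limma adjusted p = 0.551), 0.87 ± 0.36 for EIF4G1 (0.578) and -1.005 ± 0.425 for EIF4EBP1 (0.581). For the other 7 genes the limma adjusted p was 0.795 or higher. The interval for EIF4A2 ran from 0.41 to 2.42 before adjustment.

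Within PANC-1 some members varied together between replicates of the same group. EEF1A1 and EIF2S1 were high in the same libraries, DMSO replicate 2 and IKE replicates 1 and 3, and low in DMSO replicate 1 and IKE replicates 2 and 4. Over the 6 PANC-1 libraries their log2 values correlated at 0.981 (Pearson), the highest of the 45 pairs of members by that measure, and at 0.943 (Spearman); without the 2 libraries farthest from the median the Pearson value was 0.979. EIF4G1 with EIF2AK4 came next at 0.865 (Pearson), with the same Spearman value of 0.943, and at 0.981 without the 2 farthest libraries, above the first pair. Both genes of this pair were lower in both DMSO libraries than in all IKE libraries, so the shift between groups enters their correlation. EIF4A1 with EIF2S1 stood at 0.837 and 0.6. These are descriptions over libraries that share depth and handling, and no p is given.

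Among the IKE libraries, EEF1A1 and EIF2S1 were ordered as relative depth was: 5677 and 78.4 FPKM at depth 0.877 (replicate 1), 4442 and 54.0 at 0.5 (replicate 3), 1975 and 29.1 at 0.238 (replicate 2), 1689 and 25.3 at 0.21 (replicate 4). The DMSO libraries were ordered the other way, at 2722 and 32.99 FPKM with depth 0.508 and 6367 and 68.6 FPKM with depth 0.327. EEF2, also a TOP factor, did not follow, with its highest IKE value in replicate 4, so that EEF2 over EEF1A1 ran from 0.062 in IKE replicate 1 to 0.258 in IKE replicate 4, against 0.0784 and 0.0776 in the DMSO libraries. The part of depth in these values was not tested.

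**Figure D4:**
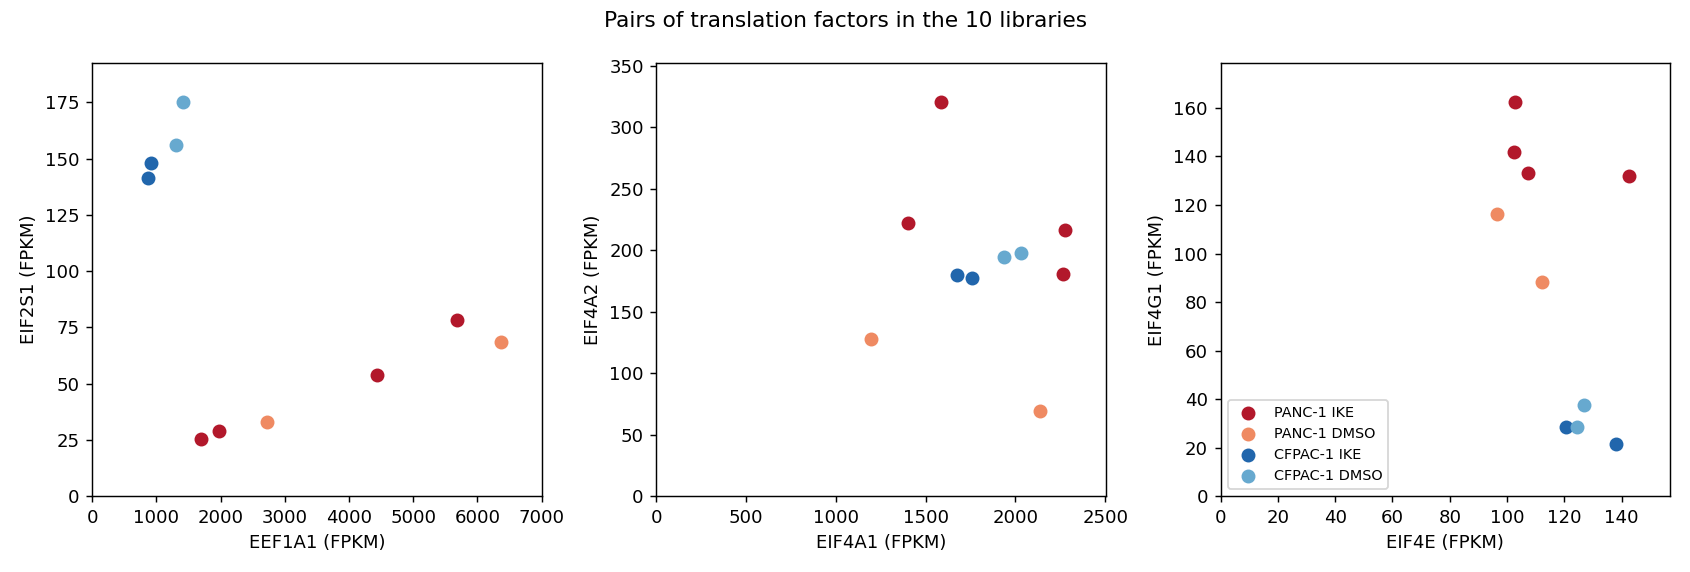
FPKM of 3 pairs of genes in the 10 libraries, with EIF2S1 against EEF1A1, EIF4A2 against EIF4A1 and EIF4G1 against EIF4E; each point is a library and colours are groups. PANC-1 libraries run along a line in the left panel, from 1689 FPKM EEF1A1 with 25.3 FPKM EIF2S1 upwards, apart from the CFPAC-1 libraries, and the lines separate by EIF4G1 in the right panel.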

How the data were processed

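Ribo-seq was done in 10 libraries. Per the labels' protocols, cells were arrested with cycloheximide and lysates digested with RNase I before rRNA removal. The authors deposited FPKM, a length- and depth-scaled level of each gene, in 1 column per library, as the headers name it. Tools named in the submitters' processing notes are DESeq2, RSEM, STAR, fastp and Bowtie2 (2.2.8), with the build GRCh38 and no role or order. The sources used here give no annotation, strand or read-assignment setting.

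The table holds Ensembl IDs without names. The 10 members were named by the list that defines them, and all are named in the text. The reference tables matched 0 IDs, so 66 other translation genes and 26 cell type markers that had been listed were not analysed here, and the line labels were not checked against markers. Members and lists were chosen with earlier results of these data known.

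Testing used limma 3.58.1 (R 4.3.3) on log2(FPKM + 1) of the 13125 genes averaging 1 FPKM or more. The model held 4 group means (6 residual degrees of freedom), and eBayes followed the trend of variance with level. P-values were adjusted by Benjamini-Hochberg. Tested on simulated data, the IKE comparisons called no gene changed 2-fold in either line. Of 200 genes changed 4-fold, 104 were called in CFPAC-1 and 131 in PANC-1. Of 200 changed 8-fold, 164 and 175 were called. False calls numbered 8 in CFPAC-1 and 32 in PANC-1 at 4-fold, and 3 and 53 at 8-fold. Their share exceeded the nominal rate in PANC-1 and, at 4-fold, in CFPAC-1, so adjusted p-values can be too small. The line differences rest on the same fit and were not simulated. Relative depth came from 306 genes whose low values step in whole reads; reads of all genes were not recovered. Alternatives covered pseudocount, filter, scaling, library weights, libraries fitted, a replicate block and leaving out libraries. Ratios and figures were made in Python 3.11.15.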

Additional observations from a re-analysis of the deposited data

Results flagged for a closer look

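Of 15 values checked in the 4 PANC-1 IKE libraries (10 genes and 5 ratios), 2 had a library apart from the others, where chance gives about 1 in 20. EIF4E stood at 142.7 FPKM in replicate 1, against 102 to 107 FPKM in replicates 2 to 4. EIF2AK4 stood at 19.73 FPKM in replicate 3, against 14.99 to 15.6 FPKM in the other 3.

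For EIF4A2 the IKE and DMSO libraries did not overlap in either line, with opposite signs. All 4 PANC-1 IKE libraries were above both DMSO libraries, and both CFPAC-1 IKE libraries (180 and 177 FPKM) were below both DMSO libraries (195 and 198 FPKM). Of all tested genes, 22.4% did not overlap in PANC-1 and 42.6% in CFPAC-1. The CFPAC-1 difference was small beside its error, at -0.13 ± 0.34 on the log2 scale (SE), and neither line's effect was called. The difference of the IKE effects was 1.41 ± 0.45 on the log2 scale (SE), which the test of the difference itself did not call (limma adjusted p = 0.551).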

How the results depend on the processing

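The 9 called line differences kept their direction in all 171 alternative fits and their call in 150. Many of these fits leave the difference itself unchanged, so its direction could not turn in them. They are those that left out only libraries outside the comparison, changed only the filter or fitted only the libraries compared. No IKE effect on a member gained a call. Among members not called, the direction turned in some fits. In PANC-1 with IKE, EIF2S1 was 0.11 with library weights, 0.00826 with the replicate block and 0.44 without IKE replicates 2 and 4, where EEF1A1 was 0.27 and EIF4EBP1 0.066; EIF4EBP1 was 0.15 with library weights. Between lines with IKE, quantile normalization gave EIF4E 0.027 and EIF4A1 -0.027. The cause was not tested. Leaving out 1 library at a time gave ranges that cross 0, listed here as lowest and highest log2 difference. In PANC-1 with IKE these were -0.69 and 0.34 for EIF2S1, -1.07 and 0.15 for EEF1A1, -0.22 and 0.62 for EIF4A1, -0.42 and 0.79 for EEF2 and -0.26 and 0.016 for EIF4EBP1. In CFPAC-1 they were -0.058 and 0.13 for EIF4E and -0.10 and 0.95 for EIF2AK3. Between lines they were -0.73 and 0.11 for EIF4A1 with DMSO, -0.000736 and 0.233 for EIF4A1 with IKE and -0.37 and 0.68 for EIF2AK3 with IKE.

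Members called between lines with DMSO numbered 3, 5 with library weights and 1 to 4 when 1 library was left out; with IKE they numbered 6 and 3 to 6. Over all genes the IKE effect in CFPAC-1 had 1 call, 2 with pseudocount 0.1, 4 with no filter, 54 with library weights, 16 in CFPAC-1 alone with its own filter (added after seeing the data), 0 in CFPAC-1 alone or with the replicate block, and 0 to 4 when 1 library was left out. In PANC-1 there were 2 calls, 5 with pseudocount 0.1, 1 with pseudocount 5, 7 with no filter, 1 in PANC-1 alone, 0 with library weights or the replicate block, and 0 to 3 when 1 library was left out. Without PANC-1 IKE replicates 2 and 4 the calls were 2 in CFPAC-1, 1 in PANC-1 and 1 for the difference of effects. That difference had 4 calls, 1 with pseudocount 5, 2 with no filter, 0 with the replicate block and 0 to 4 when 1 library was left out. Line differences had 4410 calls with DMSO, 2495 to 5308 when 1 library was left out and 5817 without PANC-1 IKE replicates 2 and 4. With IKE they had 6035, 3638 to 6338 when 1 library was left out and 8122 with library weights.

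Whether same-numbered libraries shared a culture or batch was not established. Their deviations from the group means correlated at 0.0495 in CFPAC-1 and at -0.169 and -0.163 in PANC-1. In a group of 2 libraries the deviations mirror each other, so CFPAC-1 gives a single value. Such correlations cannot show that nothing was shared. The replicate block used replicates 1 and 2 of each group. The FPKM carry no counts from which an interval could be given, so what depth limits was not measured per member.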
